A study of Canis lupus familiaris with 45 samples.

Results

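Subcutaneous fat from 5 beagles that ate freely was compared between week 24 and week 0, the sample taken before free feeding began. The comparison uses 10 of the 45 arrays of the study, 1 array for each of dogs 2, 5, 6, 7 and 8 at either week, and the pairs were matched by the animal number in the labels. All 9 dogs of the study were intact female beagles 4 years old, ate the same commercial diet and were fasted overnight before each sample. The other 4 dogs, numbers 1, 3, 4 and 9, were fed to hold their body weight, and their change over the same interval (8 arrays) is given beside the main results. Every week-24 array of both groups belongs to batch 6, whereas the week-0 arrays are spread over batches 1 to 5. Time and batch 6 therefore cannot be told apart within 1 feeding group, and only the difference between the groups' changes is free of a batch effect that both groups share. The labels give no body weight or fat mass.

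White fat stores fatty acids as triglyceride and releases them between meals. Its adipocytes take up glucose and fatty acids under insulin, make some fatty acids themselves, and secrete leptin in proportion to the fat they hold. Growing fat also remodels its collagen matrix and gathers macrophages, which take up lipid and the remains of dying adipocytes. Arrays read the transcripts of genes that act in these processes, not the processes themselves, and only for the piece of tissue as a whole. In a bulk sample, fewer cells of a type and less RNA per cell cannot be told apart.

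The tissue carried the adipocyte markers its label calls for. ADIPOQ, the adipocyte hormone adiponectin, read a mean log2 GCRMA value of 15.62 at week 0 and 15.63 at week 24 in the ad libitum dogs, close to the highest value on any array (17.51). Several arrays also carried skeletal muscle RNA. The mean log2 level of 30 muscle genes at week 0 was 13.91 in dog 7, 10.95 in dog 5 and 8.31 in dog 8, against 4.21 in dog 2 and 4.33 in dog 6. At week 24 it lay between 4.19 and 5.52 in all 5 ad libitum dogs. Among controls it was high in 2 dogs at week 0 (13.01 and 14.50) and in 2 at week 24 (10.24 and 9.41). The signal of the 3' end of actin minus that of its 5' end, which rises as RNA degrades, went from a mean of 2.85 to 3.51 in ad libitum dogs and from 2.90 to 4.79 in controls. Its change in ad libitum dogs was 0.67 ± 1.31 (SD, n = 5; 2-sided exact sign-flip test, p = 0.375, where 5 dogs can give no p below 0.0625). In controls it was 1.9 ± 2.33 (SD, n = 4), and the groups' changes did not differ clearly (2-sided exact permutation test, p = 0.317). The same measure for GAPDH went from a mean of 2.44 to 2.50 in ad libitum dogs and from 2.29 to 2.48 in controls. Over 100 probe sets that separate the dogs, all 18 arrays of weeks 0 and 24 resembled their labelled dog most. At week 8, in contrast, the array given to dog 5 resembled dog 9 and that given to dog 9 resembled dog 5, and those 2 arrays kept their labels in the fit and in the weekly means. A fit without them made 1520 calls in ad libitum dogs in place of the 1084 given next.

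Of 22690 probe sets tested, 1084 changed between week 0 and week 24 in the ad libitum dogs (4.78%). Of these, 540 rose (2.38%) and 544 fell (2.40%), by limma's moderated test at an adjusted p under 0.05. The rises covered 311 genes and the falls 321. All 5 dogs moved the same way at 470 of the 540 and at 465 of the 544. A difference of more than 1 on the log2 scale was reached by 350 of the rises and 230 of the falls. The number of calls leaned on single dogs: leaving out dog 6 gave 91, leaving out dog 7 gave 227, and the fits that dropped dog 8 or dog 5 gave 546 and 672. Without the arrays that carried muscle RNA, which leaves dogs 2 and 6 at week 0, it was 92. All 1084 probe sets kept their direction there, and 42 of the rises and 39 of the falls still passed.

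Control dogs changed over the same interval as well. In them 1797 probe sets passed (7.92%), with 728 higher (3.21%) and 1069 lower (4.71%). Dropping dog 1, 9 or 3 gave 1178, 384 and 140 calls, and the count was 23 without the arrays with muscle and 8 when the actin value entered the fit. Leaving out the arrays with muscle keeps control dogs 4 and 9 at week 0 and dogs 1 and 9 at week 24. Of the 540 rises in ad libitum dogs, 57 also passed as rises in controls, which is 10.6% of the ad libitum list and 7.8% of the control list. Of the 544 falls, 169 passed as falls in controls, 31.1% of the one list and 15.8% of the other. The control change had the same sign at 442 of the 540 rises and 499 of the 544 falls. The share of same signs over all probe sets tested was not counted, so these numbers do not set the calls apart from the rest. Every ad libitum dog changed by more than every control dog at 100 of the 540 rises, against 2.05% of all probe sets tested, and by less than every control dog at 67 of the 544 falls, against 1.80%. Week 24 lay above week 0 in every pairing of ad libitum arrays for 320 of the 540 rises, against 3.45% of all probe sets tested, and below it for 338 of the 544 falls, against 2.98%. These last shares come from the arrays that made the calls, so they describe the calls and test nothing.

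**Figure D1:**
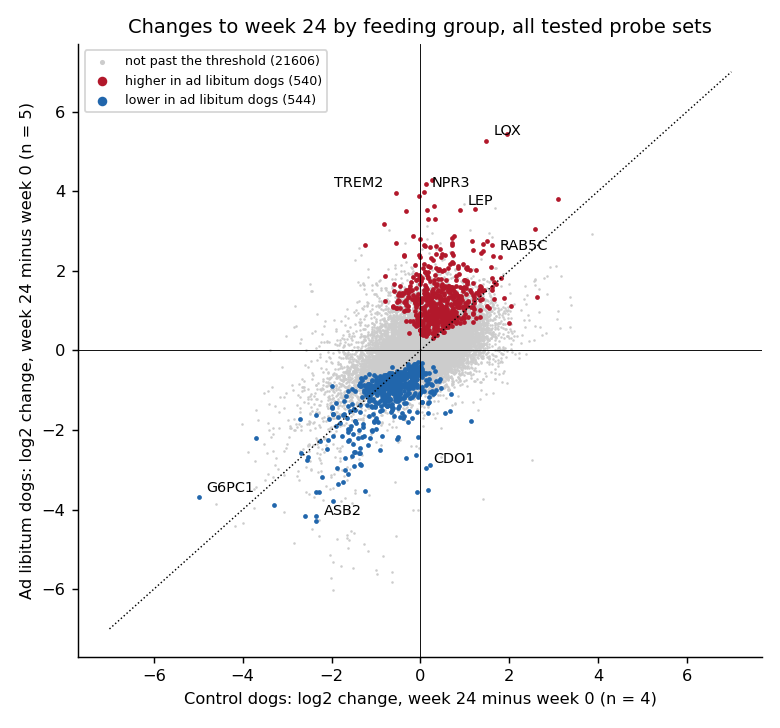
Each point is 1 of 22690 probe sets, with its log2 change from week 0 to week 24 in control dogs (x axis, n = 4) and in ad libitum dogs (y axis, n = 5). The 540 rises (red) and 544 falls (blue) of the ad libitum dogs are coloured, and the dotted line marks equal change: CDO1, NPR3 and TREM2 lie near 0 for control dogs, while G6PC1 lies low for both groups.

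LOX, which encodes lysyl oxidase, the enzyme that cross-links collagen and elastin, had the largest rise among the named genes. Its log2 level was 4.90, 5.34, 3.77, 4.90 and 4.38 at week 0 and 10.83, 8.93, 10.06, 10.23 and 9.51 at week 24 in dogs 2, 5, 6, 7 and 8. The 2 sets of values did not overlap, and the fitted change was 5.27 ± 0.808 (SE; adjusted p = 0.000247). Among controls, dogs 1 and 3 went from 4.25 and 4.03 to 6.59 and 7.71, whereas dogs 4 and 9 hardly moved (5.48 to 5.37 and 5.85 to 5.62). The control change was 1.48 ± 0.892 (adjusted p = 0.31), and the difference between the groups' changes was 3.78 ± 1.2 (adjusted p = 0.288), which did not pass. LOX passed under all 17 alternative settings tried, including without the arrays with muscle (6.27, adjusted p = 0.0317).

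LEP, the gene of leptin, the hormone by which fat signals its stores to the brain, rose in the same way. It read 7.72, 8.33, 8.70, 7.81 and 10.48 at week 0 and 13.35, 11.41, 12.47, 12.55 and 12.66 at week 24 in dogs 2, 5, 6, 7 and 8. Dog 8 began highest and dog 2 ended highest, and every week-24 value was above every week-0 value. The change was 3.53 ± 0.688 (adjusted p = 0.00345) in ad libitum dogs and 0.89 ± 0.759 (adjusted p = 0.496) in controls, all 4 of which moved up. Each ad libitum dog rose by more than each control dog, yet the difference of 2.63 ± 1.02 had an adjusted p of 0.376.

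ELOVL6, the elongase that turns palmitate into stearate, went from background to a clear signal. At week 0 it read 2.97, 3.32, 3.54, 3.07 and 3.81 in dogs 2, 5, 6, 7 and 8, all below the log2 value of 4 taken here as background. At week 24 it read 9.68, 6.28, 9.53, 6.85 and 6.44, highest in dogs 2 and 6. The fitted change of 4.29 ± 1.17 (adjusted p = 0.0304) starts from background values and is therefore a difference of readings, not a measured fold. The 4 controls read 2.95 to 3.87 at week 0 and 3.01 to 4.69 at week 24, and no control dog rose as much as any ad libitum dog. The difference between the groups was 4.03 ± 1.75 (adjusted p = 0.431), and in ad libitum dogs the call was lost without the arrays with muscle (5.32, adjusted p = 0.228).

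NPR3 encodes the clearance receptor that removes natriuretic peptides, hormones that promote fat breakdown. It read 4.61, 4.33, 6.18, 4.30 and 6.29 at week 0 and 10.38, 7.26, 8.80, 9.19 and 10.24 at week 24, with no overlap. All 4 of its probe sets passed, and at the one with the smallest p the change was 3.98 ± 0.632 (adjusted p = 0.000354), against 0.09 ± 0.697 (adjusted p = 0.958) in controls. Each ad libitum dog rose by more than each control dog, and the difference was 3.88 ± 0.94 (adjusted p = 0.171).

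TREM2, a lipid receptor of macrophages, rose at 2 dim probe sets and not at the 2 brighter ones. At the dim probe set with the smallest p it read 3.58, 2.14, 2.16, 2.11 and 2.17 at week 0 and 6.71, 9.39, 2.23, 6.01 and 7.80 at week 24 in dogs 2, 5, 6, 7 and 8. Dog 5 was highest and dog 6 did not move beyond background. The change there was 3.96 ± 0.741 (adjusted p = 0.00227), no control dog reached 4 at either week, and the difference was 4.52 ± 1.1 (adjusted p = 0.171). The 2 brighter probe sets lay above background in both groups: their ad libitum means went from 6.57 to 6.87 and from 5.34 to 5.61, and their control means from 6.73 to 5.96 and from 5.52 to 4.01. They changed by 0.26 ± 0.55 and 0.20 ± 0.584 in ad libitum dogs (adjusted p = 0.809 and 0.867), so that the rise rests on 2 of 4 probe sets.

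IGSF1, an immunoglobulin-domain membrane protein, read 2.80 to 4.92 at week 0 and 6.65 to 9.31 at week 24, a change of 3.88 ± 1.04 (adjusted p = 0.0275). Among controls it read 3.59, 3.11, 7.53 and 7.11 at week 0 and 5.73, 3.39, 4.89 and 7.20 at week 24 in dogs 1, 3, 4 and 9. Only dog 9 reached the ad libitum week-24 range at week 24, and the control change was -0.04. DKK2, a modulator of Wnt signalling, read 6.64 to 7.90 at week 0 and 8.91 to 10.65 at week 24 without overlap (2.75 ± 0.624, adjusted p = 0.01). All 4 controls also moved up at DKK2, by 1.17 ± 0.688 (adjusted p = 0.299).

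ZCCHC24, a zinc finger gene, had the smallest adjusted p of the 12 named rises. Its 5 values were between 2.79 and 3.27 at week 0, which is background, and between 4.48 and 7.27 at week 24 (change 2.71 ± 0.343, adjusted p = 1.98e-05). Its control change was 0.70 (adjusted p = 0.253). GALNT3, which starts O-linked glycosylation of proteins, overlapped between weeks because dog 5 stayed low at 3.01 (3.56 ± 1.03, adjusted p = 0.0399; control change 1.24). Its brighter probe set changed by 3.59 without passing (adjusted p = 0.0552). DNER, a membrane protein with EGF repeats, left background in 4 dogs but reached only 2.52 in dog 5 (3.29 ± 0.941, adjusted p = 0.0371; control change 0.16). LOC489231 (2.87, and -0.16 in controls) and ROPN1L (2.75, and 1.51 in controls), the latter a gene of the sperm flagellum, complete the 12. ROPN1L was at background in every ad libitum dog at week 0, and its other 2 probe sets did not pass (1.01 and 1.69).

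**Figure D2:**
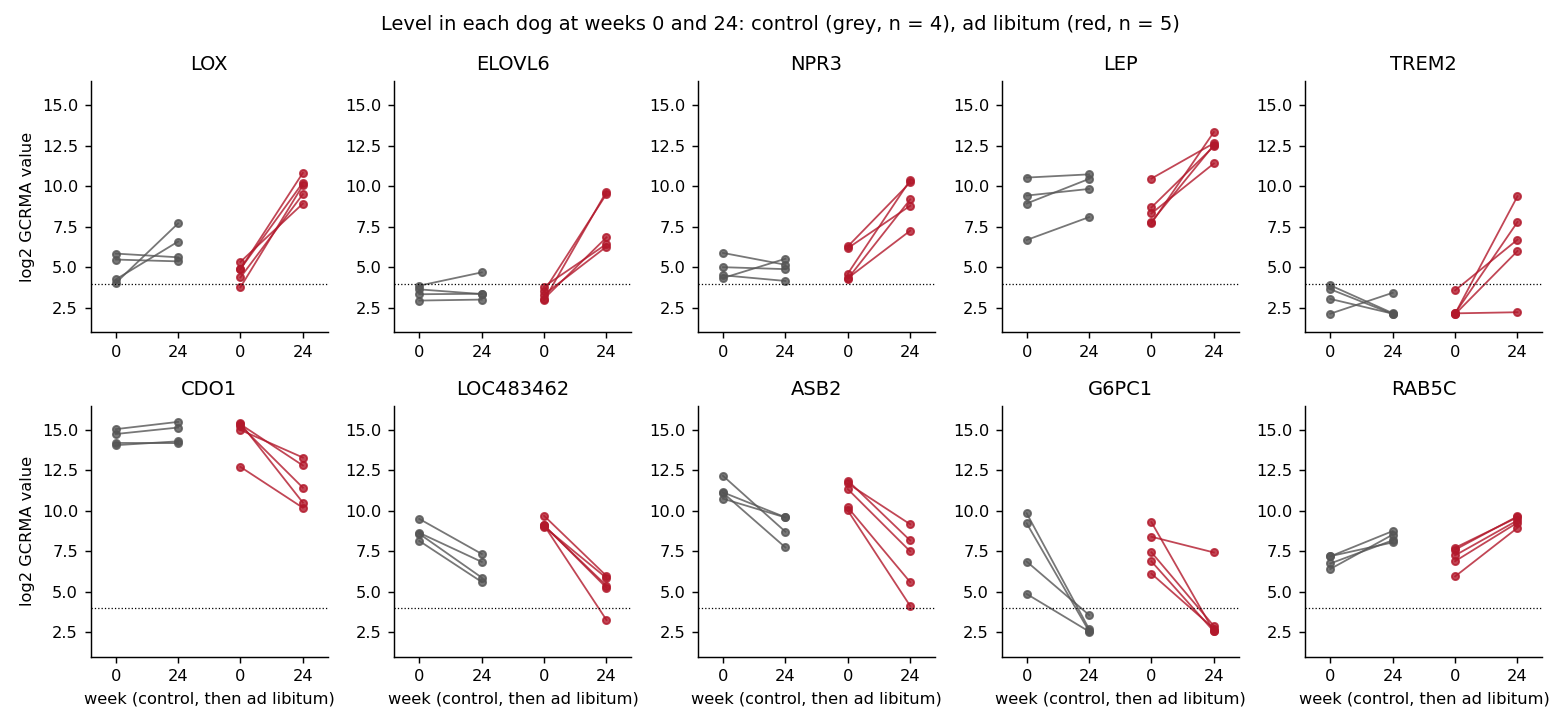
The log2 GCRMA level of 10 genes in each dog at weeks 0 and 24, with 1 line per dog, controls in grey (n = 4) and ad libitum dogs in red (n = 5); the dotted line marks the background value of 4. LOX, ELOVL6, NPR3 and LEP separate week 24 from week 0 in ad libitum dogs, TREM2 stays at background in dog 6 at the dim probe set plotted, and G6PC1, ASB2, LOC483462 and RAB5C move the same way in both groups.

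CDO1, cysteine dioxygenase, commits cysteine to the path that ends in taurine and is abundant in fat. It read 15.42, 15.27, 15.35, 15.00 and 12.72 at week 0 and 10.52, 11.44, 12.81, 13.30 and 10.20 at week 24 in dogs 2, 5, 6, 7 and 8. Every dog fell, and the weeks overlap only because dog 8 began low. The change was -2.96 ± 0.675 (adjusted p = 0.0107), and all 4 probe sets of the gene passed. The 4 controls stayed between 14.06 and 15.50 at both weeks, with a change of 0.13 ± 0.745 (adjusted p = 0.941). The difference of -3.09 ± 1.01 had an adjusted p of 0.297. Without the arrays with muscle the fall was -3.84 with an adjusted p of 0.0559.

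Most of the other large falls came with a smaller fall in control dogs. LOC483462, a gene known here by its locus number, read 9.03 to 9.70 at week 0 and 3.27 to 5.99 at week 24, a change of -4.16 ± 0.585 (adjusted p = 8.75e-05). In controls it went from a mean of 8.72 to 6.43, by -2.34 ± 0.646 (adjusted p = 0.0217), and each ad libitum dog fell by more than each control dog. ASB2, the substrate adaptor of a ubiquitin ligase, read 10.03 to 11.88 at week 0 and 4.14 to 9.18 at week 24 (-4.28 ± 0.972, adjusted p = 0.0101). Its control change of -2.34 ± 1.07 did not pass (adjusted p = 0.171). HOOK2, a linker to microtubules, read 7.70 to 8.58 and then 4.96 to 6.08 (-2.86 ± 0.457, adjusted p = 0.000359), with each ad libitum dog below each control dog in its change (control change -1.36).

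G6PC1, the catalytic subunit of glucose-6-phosphatase, fell in every dog of both groups. In dogs 2, 5, 6, 7 and 8 it went from 8.41, 9.31, 7.45, 6.13 and 6.89 to 7.44, 2.57, 2.90, 2.74 and 2.57. Dog 2 kept most of its signal and the other 4 fell to background. The fitted change was -3.69 ± 1.12 (adjusted p = 0.0491) in ad libitum dogs and -4.99 ± 1.23 (adjusted p = 0.0121) in controls. The ad libitum call was lost without the arrays with muscle (-3.88, adjusted p = 0.398).

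FFAR4, a receptor for long-chain fatty acids, fell by 2.95 (SE 0.526, adjusted p = 0.00132) and also fell in controls (-1.88, adjusted p = 0.0395). AGMO, which cleaves ether lipids, passed at all 3 of its probe sets. At the AGMO probe set with the smallest p the values went from 6.97 to 7.86 at week 0 down to 4.14 to 5.26 at week 24 (-2.88 ± 0.422, adjusted p = 0.000134), with a control change of -1.34 (adjusted p = 0.0681). Of its 3 probe sets 1 passed in controls (-2.28, adjusted p = 0.0263). RHBG, an ammonium transporter (-3.17), DDO, D-aspartate oxidase (-2.51), ANO3 (-2.55), RHOH, a GTPase of blood cells (-2.58), and LOC491346 (-3.37) fell in all 5 dogs with adjusted p of 0.000175 to 0.0185. Their control changes ran from -0.90 to -2.22. The second probe set of LOC491346 changed by 0.29, so that its fall rests on 1 probe set.

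Other genes passed with the same sign in both feeding groups. Among the rises, RAB5C, a GTPase of early endosomes, read 5.96 to 7.73 at week 0 and 8.96 to 9.67 at week 24 (2.38 ± 0.251, adjusted p = 1.21e-06) and changed by 1.63 ± 0.277 (adjusted p = 0.00113) in controls. SLC4A7, a sodium bicarbonate transporter, changed by 3.06 ± 0.526 and 2.57 ± 0.58 in the 2 groups, and at a dimmer probe set by 2.01 and 0.42, where the controls did not pass (adjusted p = 0.409). SVEP1, a large protein of the extracellular matrix, changed by 1.59 ± 0.252 and 1.62 ± 0.278, and its ad libitum weeks did not overlap (10.73 to 11.52, then 12.54 to 13.07). HMGN3, a nucleosome-binding protein, changed by 2.01 and 1.12, and PGM3, of hexosamine synthesis, by 1.83 and 1.62 at the dimmest of its 4 probe sets. The 3 brighter ones passed in neither group, with changes of 1.21 to 1.69 in ad libitum dogs (adjusted p = 0.0697 to 0.104) and 0.20 to 0.50 in controls. ZFAND2A, USP9X and CDC42BPA make up the 8.

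Among the shared falls were LOC483462, G6PC1, LOC491346, FFAR4 and AGMO again. ID1, an inhibitor of DNA-binding transcription factors, fell from 8.46 to 10.99 at week 0 to 5.91 to 8.20 at week 24, by -2.21 ± 0.599 (adjusted p = 0.0288), and by -3.69 ± 0.661 in controls. PPP1R1A, an inhibitor of protein phosphatase 1, fell by -2.58 ± 0.724 and -2.69 ± 0.799. Its highest week-0 levels were 13.00 in dog 7 and 11.29 in dog 5, the 2 ad libitum dogs with the most muscle RNA. Without the arrays with muscle, which leaves dogs 2 and 6 at week 0, the change of PPP1R1A was -0.85 (adjusted p = 0.724). Dogs 2 and 6 themselves changed by 0.26 and -0.87, and the part of muscle RNA was not tested. CELF1, an RNA-binding protein, passed at 1 of 4 probe sets (-2.48), and the other 3 changed by -0.15 to -0.02.

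The weeks between show which of these levels had moved before batch 6. Weeks 0 to 12 were spread over batches 1 to 5, but unevenly. At week 4 the ad libitum arrays belonged to batches 3 to 5 and the control arrays to batches 1 and 2. The weekly means are not adjusted for batch, so feeding and batch cannot be told apart at week 4. The group means of ELOVL6 in ad libitum dogs were 3.34, 9.35, 7.26, 8.43 and 7.76 at weeks 0, 4, 8, 12 and 24, and those of LEP were 8.61, 12.13, 12.44, 11.47 and 12.49. Their means at weeks 4, 8 and 12 were all far above that of week 0, and ELOVL6 was higher at week 4 than at week 24. IGSF1 (8.49, 9.96, 7.85 and 7.58 at weeks 4, 8, 12 and 24) and LOC489231 (9.90, 10.35, 9.02 and 8.91) had their highest ad libitum means at week 8. Control means of these genes were also higher at the weeks between. Over weeks 0, 4, 8, 12 and 24 they were 5.34, 6.86, 7.59, 7.31 and 5.30 for IGSF1. For LOC489231 they were 6.15, 7.82, 7.51, 7.35 and 5.98. LOX had ad libitum means of 4.66, 7.55, 8.13, 8.39 and 9.91. Its week-8 values spread widely (SD 2.49), down to 3.79, and include the array labelled dog 5 that resembled dog 9. The order of the middle weeks is therefore uncertain. The dim TREM2 probe set had means below 4 up to week 12 (2.43, 2.10, 3.24 and 2.77), with 1 array at 6.11 in week 8, and 6.43 at week 24. At week 12 the means of ZCCHC24 (3.25), GALNT3 (3.47) and ROPN1L (2.96) were below 4, although ZCCHC24 (4.16) and GALNT3 (4.45) had been above it at week 8 and 1 dog read 7.16 for GALNT3 at week 12.

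Falls also split by time. G6PC1 had ad libitum means of 3.07, 5.05 and 2.60 at weeks 4, 8 and 12, whereas its control means were 8.26, 7.01 and 8.67 at those weeks and 2.86 at week 24. The ad libitum values of week 8 spread widely (SD 3.34), up to 10.45 in the array labelled dog 5 that resembled dog 9. AGMO, ANO3 and ASB2 in ad libitum dogs had likewise covered 94%, 94% and 123% of their week-24 fall by week 12, each measured from the same week-0 arrays. CDO1 came late: its means were 14.75, 14.58, 13.46, 13.79 and 11.65, so that week 12 had covered 31% of the fall. Of the 12 named rises, 6 had covered more than 50% of their week-24 change at week 12, and of the 12 named falls 9 had.

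**Figure D3:**
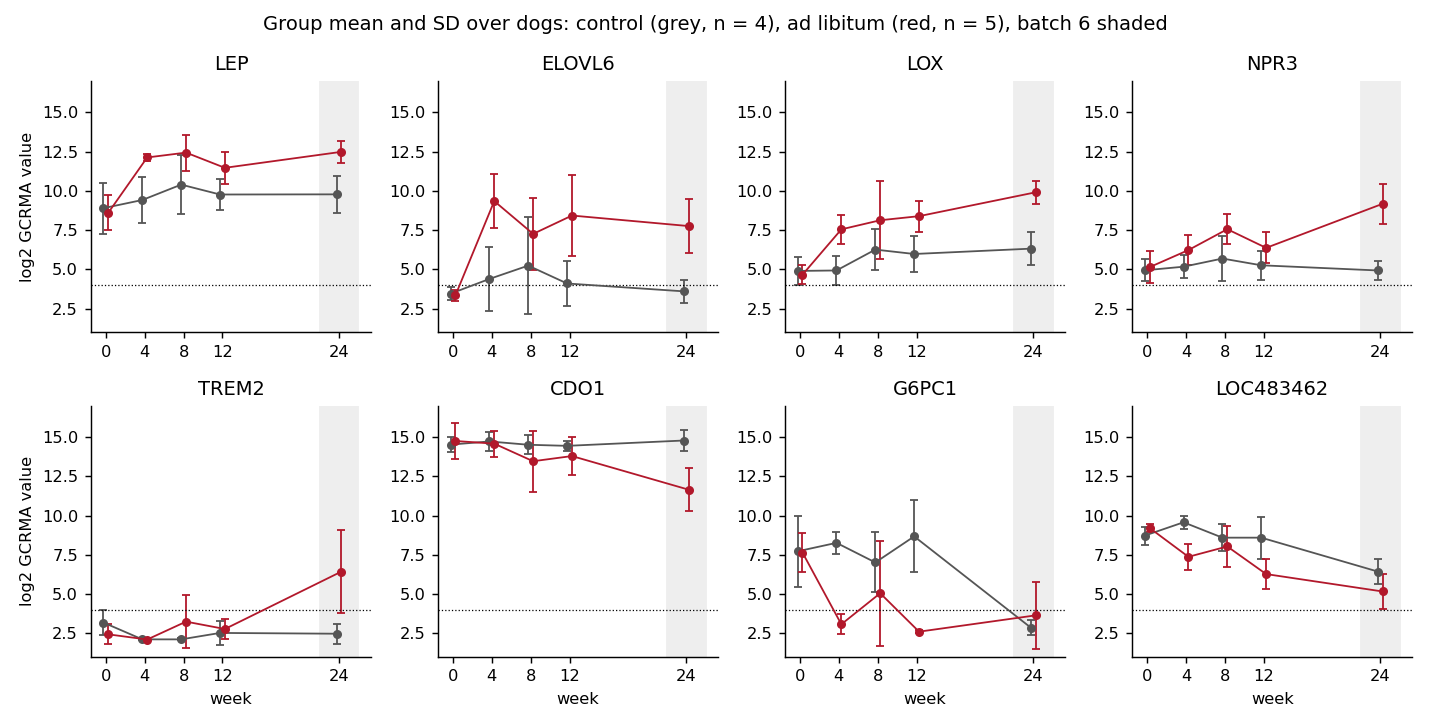
Group means over the 5 sampled weeks for 8 genes, with bars for the SD over dogs, controls in grey (n = 4), ad libitum dogs in red (n = 5), and week 24, which is batch 6, shaded; the y axis is the log2 GCRMA level and the dotted line the background value of 4. LEP and ELOVL6 in ad libitum dogs are high from week 4, the mean of TREM2, at its dim probe set, is above 4 at week 24 alone, and G6PC1 in ad libitum dogs is low at weeks 4 and 12 with a wide spread at week 8 (5.05, SD 3.34), while its control mean is low at week 24.

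Of 8 genes of fat biology followed whatever their rank, LEP alone passed. ADIPOQ changed by -0.05 ± 0.19 (adjusted p = 0.902), with values of 15.52 to 15.71 at week 0 and 14.72 to 15.96 at week 24. PPARG, the master transcription factor of adipocytes, changed by -0.38 ± 0.384 (adjusted p = 0.58; -0.68 in controls). LPL, the lipase that frees fatty acids from blood lipoproteins, changed by -0.21 ± 0.341 (adjusted p = 0.745; -0.42 in controls). For FASN, fatty acid synthase, the change was -1.46 ± 0.538 (adjusted p = 0.104), with 4 dogs down and dog 2 level at 13.31 and 13.46; in controls it was -1.85 ± 0.594 (adjusted p = 0.0484).

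SCD, the desaturase that makes monounsaturated fat, was near the top of the scale at its brightest probe set. It went from 15.78 to 16.17 at week 0 to 16.26 to 16.45 at week 24, higher in all 5 dogs (0.37 ± 0.141, adjusted p = 0.12), and changed by -0.30 in controls. Its other 2 probe sets changed by 1.48 and 1.49 in ad libitum dogs (adjusted p = 0.184 and 0.158), while in controls they fell (-2.45 and -2.47, adjusted p = 0.0341 and 0.0237). The differences of 3.94 and 3.96 did not pass (adjusted p = 0.181 and 0.171). CCL2, a chemokine that draws monocytes, moved up in all 5 dogs without passing (1.55 ± 0.857, adjusted p = 0.286; 0.26 in controls). CD68, a lysosomal protein of macrophages, changed by -0.19 ± 0.635 (adjusted p = 0.885).

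Gene lists were read at the brightest probe set of each gene, beside all 9113 named genes, of which 2.38% rose and 2.63% fell in ad libitum dogs and whose median change was 0.00. The corresponding shares in controls were 2.51% and 4.92%, with a median of 0.03. The 6 lists of lipid handling (fatty acid synthesis, uptake and oxidation, triglyceride assembly, lipid droplets and lipolysis) had medians of -0.14 to 0.47 in ad libitum dogs and of -1.38 to -0.25 in controls. The highest ad libitum median was that of 9 lipolysis genes (0.47, against -0.30 in controls). The 1 rise in that list was NPR3, the clearance receptor described above (3.62, adjusted p = 0.00144 at its brightest probe set). Fatty acid synthesis (18 genes) had medians of 0.09 and -0.54, with ELOVL6 higher and ACACA, acetyl-CoA carboxylase, lower in ad libitum dogs. ACACA read 11.92 to 12.50 at week 0 and 9.28 to 11.39 at week 24 (-1.40 ± 0.416, adjusted p = 0.0451), and it changed by -1.12 ± 0.459 in controls.

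Triglyceride assembly had medians of 0.15 in ad libitum dogs and -1.38 in controls. None of its 14 genes passed in ad libitum dogs by limma (2 at an unadjusted p under 0.05), and 4 fell in controls. GPAM, which makes the first step, read 4.97, 6.50, 6.30, 6.77 and 6.62 at week 0 and 9.48, 5.14, 8.53, 8.64 and 8.42 at week 24 in dogs 2, 5, 6, 7 and 8. Dog 5 stood apart, with a lower value where the other 4 had higher ones. The change was 1.66 ± 0.844 (adjusted p = 0.245), against -2.48 ± 0.931 (adjusted p = 0.0927) in controls. DGAT1, which makes the last step, changed by -1.20 ± 0.376 (adjusted p = 0.0561) and, in controls, by -1.96 ± 0.415 (adjusted p = 0.00477). No member of the list differed between the groups' changes (lowest adjusted p = 0.202, and 5 of 14 at an unadjusted p under 0.05).

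Of 12 lipid droplet genes, PLIN2, the coat protein of small droplets, rose. It read 11.96, 11.39, 11.86, 12.19 and 11.82 at week 0 and 12.94, 12.24, 12.38, 12.43 and 12.49 at week 24, without overlap (0.75 ± 0.211, adjusted p = 0.0344). Each ad libitum dog rose while all 4 controls moved down (-0.33 ± 0.233, adjusted p = 0.392). Of 18 cholesterol genes, MSMO1 (1.20 ± 0.264, adjusted p = 0.00796) and CYP51A1 (1.20 ± 0.331, adjusted p = 0.0314), which both act on sterol methyl groups, rose, and none fell. Their control changes were 0.42 and 0.28. Among genes of insulin signalling, GRB14, an inhibitor of the insulin receptor, rose from 4.51 to 5.46 at week 0 to 5.40 to 8.16 at week 24 (2.34 ± 0.596, adjusted p = 0.0207), against 0.47 in controls. IRS1, the receptor's main substrate, fell by 1.39 (SE 0.364, adjusted p = 0.0245) from values that were already low, against -0.49 in controls.

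Proteins of the cytosolic ribosome moved by little and in 1 direction. Of 40 genes, 36 were lower and 10 passed as falls, with 0 rises, and the list's median was -0.17 in ad libitum dogs and 0.01 in controls. The mean of the list fell in each dog, from 14.67, 14.61, 14.71, 14.55 and 14.66 to 14.42, 14.40, 14.38, 14.44 and 14.47 in dogs 2, 5, 6, 7 and 8. Controls ran from 14.44 to 14.64 at week 0 and from 14.43 to 14.69 at week 24. RPLP1, of the ribosomal stalk, fell by 0.80 (SE 0.117, adjusted p = 0.000134) and also fell in controls (-0.54 ± 0.129, adjusted p = 0.00993). RPS16 changed by -0.49 ± 0.11 (adjusted p = 0.00929) and by -0.06 in controls, RPL36 by -0.73 and -0.12, and RPS15 by -0.48 and -0.15.

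The ribosomal median was -0.24 with each array centred on its median and -0.14 with quantile normalization. Without the arrays with muscle it was -0.23. None of the 40 genes differed between the groups by limma (lowest adjusted p = 0.368, with 10 at an unadjusted p under 0.05). For 13 of them each ad libitum change lay below each control change, against 1.80% of all probe sets tested.

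Mitochondrial lists had medians below 0 in both groups, further below 0 in the controls. For respiratory complex I, which feeds electrons from NADH into the chain, the median of 34 genes was -0.39 in ad libitum dogs, with 3 falls (NDUFV1 -0.90, NDUFS1 -0.67 and NDUFB7 -0.83). In controls it was -1.11 with 29 falls. Control dogs 1 and 3, which carried muscle RNA at week 0, had complex I means of 12.69 and 13.21 there, against 12.33 and 12.27 in dogs 4 and 9, and all 4 ended between 11.48 and 11.66. Over all probe sets the control falls numbered 8 without the arrays with muscle and 1 with the actin value in the fit, against 1069. The fit without the arrays with muscle keeps only control dogs 4 and 9 at week 0 and dogs 1 and 9 at week 24, so it also has fewer arrays. The part of muscle RNA and of RNA quality in the complex I values was not tested beyond this. Without the arrays with muscle the ad libitum median was -0.10. The list's mean in the ad libitum dogs fell in dogs 5, 6, 7 and 8, but rose in dog 2 from 12.05 to 12.69. Dogs 7 and 8, which carried muscle RNA at week 0, had its highest week-0 means (12.90 and 12.80), whereas dog 5, with more muscle RNA than dog 8, had the lowest (11.98).

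Complexes III to V (21 genes) had medians of -0.33 and -1.01, with 0 falls past the threshold by limma in ad libitum dogs (6 at an unadjusted p under 0.05) and 17 in controls. The mitochondrial ribosome (57 genes) had medians of -0.27 and -0.63, with 4 and 24 falls, and MRPS18A changed by -1.30 ± 0.264 (adjusted p = 0.00429). The citric acid cycle (21 genes) had medians of -0.27 and -0.98, with 1 fall, SUCLG1, against 8 in controls. For the complex I genes no difference of the changes passed (lowest adjusted p = 0.222, with 20 of 34 at an unadjusted p under 0.05).

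**Figure D4:**
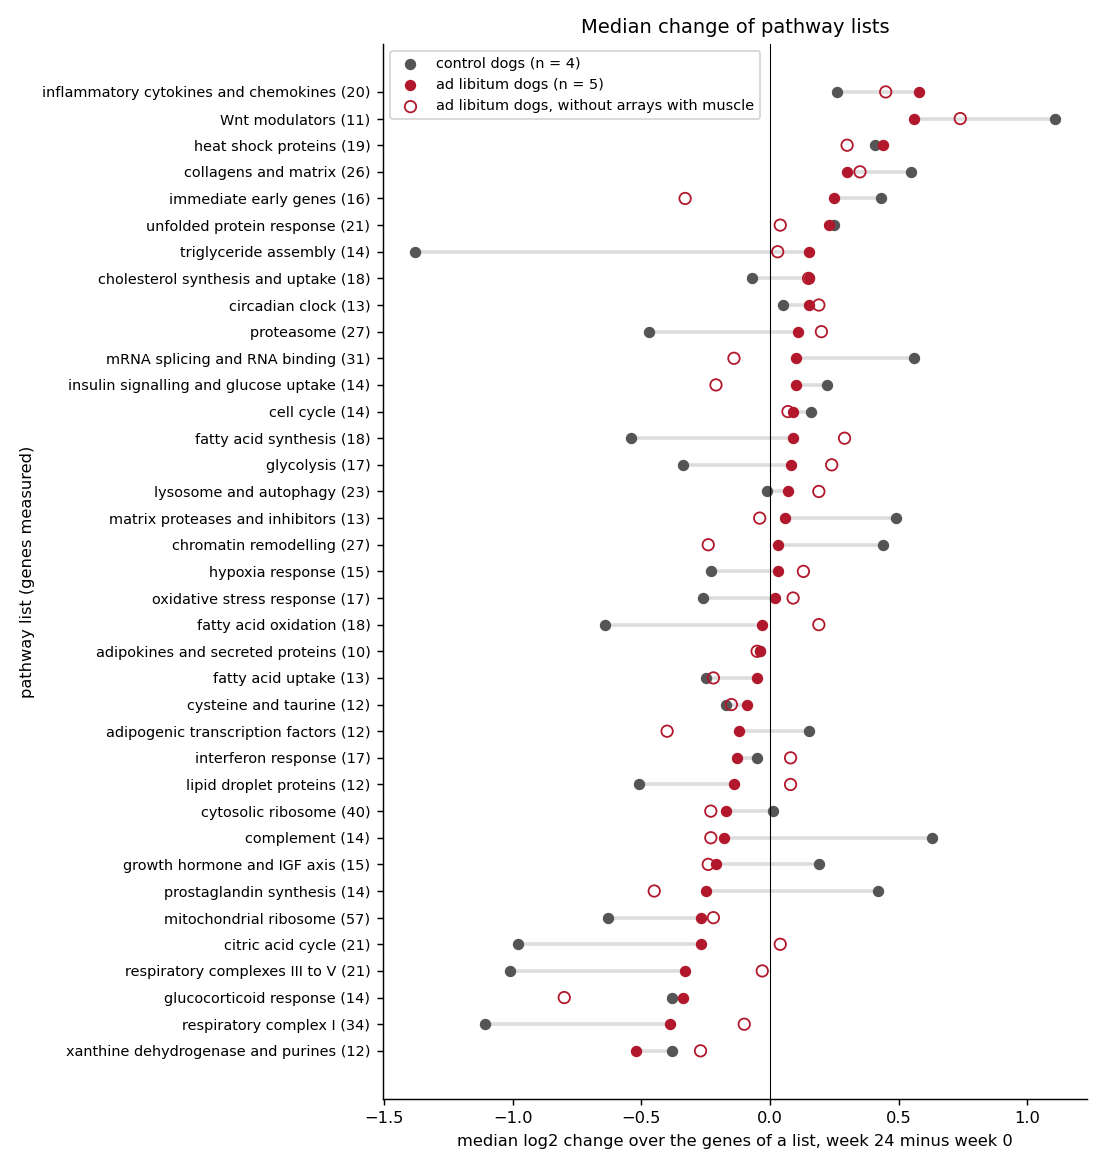
Median log2 change from week 0 to week 24 over the genes of each pathway list with at least 10 genes, in control dogs (grey, n = 4), ad libitum dogs (filled red, n = 5) and ad libitum dogs without the arrays with muscle (open red). Triglyceride assembly, respiratory complexes and the citric acid cycle lie far to the left in controls, and the ad libitum medians all lie between -0.52 and 0.58.

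Genes of prostaglandin synthesis changed in both directions. AKR1B1, an aldose reductase that can make prostaglandin F, rose from 11.57 to 12.74 at week 0 to 13.11 to 13.73 at week 24 (1.15 ± 0.271, adjusted p = 0.0126), against -0.09 in controls. PTGS1, cyclooxygenase 1, read 7.91, 7.87, 7.63, 7.20 and 7.20 at week 0 and 5.36, 6.45, 6.12, 6.05 and 6.47 at week 24 in dogs 2, 5, 6, 7 and 8. It fell in each dog (-1.52 ± 0.433, adjusted p = 0.0365), while its control change was 0.67 ± 0.478, and each ad libitum change lay below each control change. PTGDS, prostaglandin D synthase, fell by 2.17 (SE 0.585, adjusted p = 0.0283) and changed by -0.06 in controls, and PTGER3, a receptor for prostaglandin E, fell by 2.00 (SE 0.482, adjusted p = 0.0149) against -1.10. These were the 4 genes of 14 that passed. Adjusted p for the differences ran from 0.245 for PTGS1 to 0.691 for PTGER3.

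Of 17 genes of the oxidative stress response, 4 rose and none fell. GCLM, which limits glutathione synthesis, changed by 1.59 ± 0.428 (adjusted p = 0.0284), TXNRD1, thioredoxin reductase, by 0.81 ± 0.186 (adjusted p = 0.0108), NQO1, a quinone reductase, by 0.68 ± 0.2 (adjusted p = 0.0412) and GPX1, a glutathione peroxidase, by 0.46 ± 0.126 (adjusted p = 0.0302). All 4 were higher in 5 of 5 dogs with no overlap between weeks, while the ad libitum and control changes overlapped for each of them. Control means went from 7.14 to 8.16 for GCLM, 9.23 to 9.83 for TXNRD1, 7.15 to 7.34 for NQO1 and 14.12 to 14.22 for GPX1. Beside CDO1, SUOX, which oxidises sulfite, fell among the cysteine genes (-1.01 ± 0.275, adjusted p = 0.0303). Unlike CDO1, SUOX also went down in controls, from a mean of 9.61 to 8.73. XDH, xanthine dehydrogenase, fell from 11.30 to 11.61 at week 0 to 8.08 to 9.63 at week 24 (-2.45 ± 0.476, adjusted p = 0.00331), and by -1.35 ± 0.526 (adjusted p = 0.105) in controls.

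The immune lists held few calls. None of 22 macrophage genes passed by limma (4 at an unadjusted p under 0.05), with a median of 0.27 in ad libitum dogs and -0.05 in controls. ITGAX, the integrin CD11c, read 4.59 to 6.09 at week 0 and 5.29 to 8.02 at week 24, higher in each dog (1.40 ± 0.5, adjusted p = 0.0938; -0.26 in controls). MSR1, a scavenger receptor, was also higher in each dog (1.62 ± 0.704, adjusted p = 0.172; -0.59 in controls). Of the 22 genes, 15 were higher and 7 lower in ad libitum dogs. The means of C1QA (11.61 to 10.93) and C1QB (9.73 to 8.86) went down. The mean of the macrophage list fell in dogs 2 (9.08 to 8.23) and 6 (8.76 to 8.26) and rose in dogs 5, 7 and 8. The 20 cytokine and chemokine genes had medians of 0.58 in ad libitum dogs and 0.26 in controls, and CXCL14 and CCL4 rose. CXCL14 read 13.18 to 14.35 at week 0 and 13.94 to 15.48 at week 24 (1.28 ± 0.338, adjusted p = 0.0259), with each ad libitum change above each control change.

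Dog 5 stood apart from the other 4 ad libitum dogs at week 24, as seen after the values of all dogs were compared. Its mean over the 22 macrophage genes went from 8.63 to 10.28, whereas the other 4 dogs ended between 8.23 and 9.03. Its mean over 14 adipocyte markers went from 12.64 to 12.02, whereas dogs 2, 6, 7 and 8 moved up to 13.63, 13.50, 13.59 and 13.48. Its mean over the triglyceride assembly genes went from 8.91 to 8.00. PPARG read 12.80 and then 10.97 in dog 5, and FASN 13.27 and then 10.06. LEP rose in dog 5 all the same, from 8.33 to 11.41, and LOX from 5.34 to 8.93. Without dog 5 the change of ADIPOQ was 0.16, that of LPL 0.10 and neither passed (adjusted p = 0.654 and 0.904). Control dog 3 read lower than dog 5 at week 24 for PPARG (10.82), FASN (9.32), triglyceride assembly (mean 7.40) and adipocyte markers (mean 11.98). Its macrophage mean was 9.28, the highest among controls. The actin value of dog 5 was the highest of the ad libitum week-24 arrays (4.47), and its part in these levels was not tested.

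**Figure D5:**
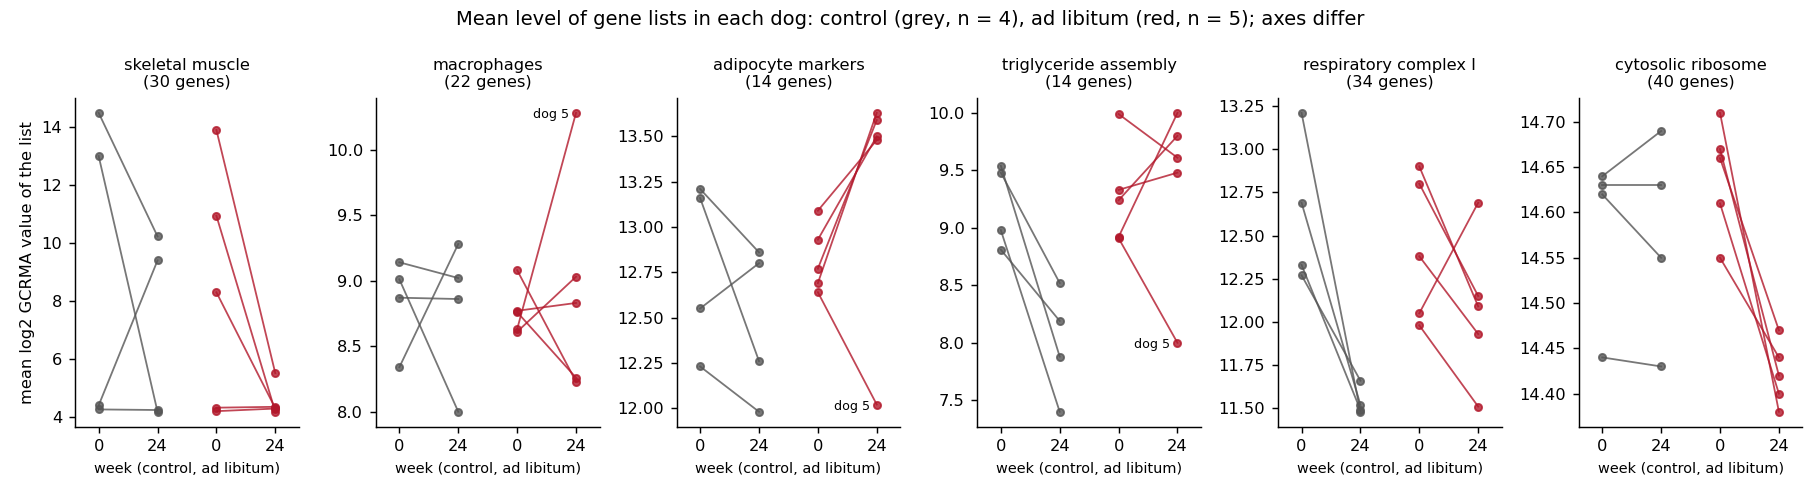
Mean log2 GCRMA level over the genes of 6 lists in each dog at weeks 0 and 24, with 1 line per dog, controls in grey (n = 4) and ad libitum dogs in red (n = 5), and a separate y axis for each list. Muscle genes are high in 3 ad libitum dogs at week 0 and in none at week 24, the ribosome list falls in every ad libitum dog, and at week 24 dog 5 is highest for macrophage genes (10.28) and, among the ad libitum dogs, lowest for adipocyte markers (12.02; control dog 3 reads 11.98).

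In 26 collagen and matrix genes the median was 0.30, against 0.55 in controls, and LOX was the 1 gene that passed. COL5A3 changed by 0.79 ± 0.285 (adjusted p = 0.0977; 0.50 in controls) and COL4A2 by 0.40 ± 0.164 (adjusted p = 0.145; -0.05 in controls). The 11 modulators of Wnt signalling had medians of 0.56 in ad libitum dogs and 1.11 in controls, with 1 rise in each group. DKK2 was the one that passed in ad libitum dogs. The secreted inhibitors SFRP1 (1.05 ± 0.365, adjusted p = 0.0857) and FRZB (0.79 ± 0.269, adjusted p = 0.0793) were higher in each of the 5 dogs. Their control changes were -0.39 and -0.02. Of 19 heat shock genes, HSF1, their transcription factor, fell (-0.90 ± 0.208, adjusted p = 0.0116) and changed by -0.69 in controls (adjusted p = 0.0578). HSPA8 (0.68 ± 0.223, adjusted p = 0.0678) and HSPH1 (1.86 ± 0.674, adjusted p = 0.0991) did not pass. In controls 3 of the genes rose, HSPH1 (2.85, adjusted p = 0.0157), HSP90AA1 and HSPA4L, and HSPA8 changed by 0.41.

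When the ad libitum change was set directly against the control change, 5 of 22690 probe sets passed (0.0220%), 1 higher and 4 lower, against 2316 at an unadjusted p under 0.05. The one that was higher has no gene name here. It read a mean of 2.49 at week 0 and 4.80 ± 1.01 (SD, n = 5) at week 24 in ad libitum dogs and stayed at 2.52 and 2.51 in controls (difference 2.37 ± 0.427, adjusted p = 0.0261). The other 4 were mainly rises in control dogs. KIF5A, a motor protein of nerve cells, changed by 0.31 ± 0.133 in ad libitum dogs and 1.60 ± 0.147 in controls (difference -1.29 ± 0.198, adjusted p = 0.00426). Its means were 3.68 and 3.98 in ad libitum dogs and 3.60 and 5.20 in controls. Only the control mean of week 24 was above background, so the size of the change is not a fold. A probe set of ARID1A, a subunit of a chromatin remodelling complex, changed by 0.01 ± 0.2 and 1.69 ± 0.221 (difference -1.68 ± 0.298, adjusted p = 0.0261). The brightest ARID1A probe set instead fell by 0.42 (SE 0.128, adjusted p = 0.0486) in ad libitum dogs and changed by 0.28 in controls.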

How the data were processed

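Fat was profiled on Affymetrix canine arrays, 1 per dog and week. The deposited values are GCRMA values, read here as log2 (range 0.42 to 17.51); GCRMA is named without a version in the submitters' processing notes, and the log base is not given in the sources used here. Arrays give no counts, so their number limits precision.

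All 45 arrays were fitted with limma 3.58.1 (statmod 1.5.0, R 4.3.3): 10 group means, a term for batches 1 to 5, none for batch 6, and dog as a random block (correlation 0.00562), leaving 31 residual degrees of freedom. Of 42924 probe sets, 22690 were tested (above log2 4 on at least 4 arrays), with Benjamini-Hochberg adjustment over them. Errors of changes are the fit's standard errors. Same-numbered arrays are the same animal. Deviations of a dog's 2 arrays from their group means correlated at -0.255 to 0.493. Symbols came from the platform's annotation: 16915 tested probe sets had 1 symbol, 271 several and 5504 none.

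Named genes, 1 symbol each, were the 12 largest ad libitum changes of each sign seen in all 5 dogs, the 8 largest of each sign past the threshold in both groups, up to 4 with the smallest p per list, 10 of each sign past in the difference (none qualified), and 8 fixed fat genes. KIF5A and the ARID1A probe set were named after their values were seen. Of 53 lists, those not described are not reported. The members and lists were chosen with earlier results of these data known. Alternatives changed the block, batch term, filter, scaling, variance model, arrays and RNA covariate. The fit was tested on simulated data. Promoter sequences were not used here.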

Additional observations from a re-analysis of the deposited data

Results flagged for a closer look

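Changes of single dogs were examined at 43 named probe sets in both feeding groups, 86 sets of values in all, and 8 held 1 dog far from the others. Chance alone flags about 1 in 20 such sets. Among ad libitum dogs, dog 5 stood apart at ADIPOQ, with a change of -0.99 against 0.17 to 0.31 in the other 4, at PPARG (-1.83 against -0.11 to 0.22) and at LOC483462 (-5.83 against -3.85 to -3.17). Dog 8 stood apart at RHOH, with -5.41 against -2.41 to -1.30. Among controls, dog 4 stood apart at ROPN1L (6.47 against -0.94 to 0.24), HMGN3 (2.44 against 0.52 to 0.84) and CELF1 (-3.60 against -1.78 to -1.50), and dog 3 at SVEP1 (2.18 against 1.34 to 1.41).

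The change differed between feeding groups by the test of the difference itself at 5 probe sets. KIF5A differed by -1.29 (adjusted p = 0.00426), 1 probe set of ARID1A by -1.68 (adjusted p = 0.0261), and 3 probe sets without a gene name by 2.37 (adjusted p = 0.0261), -2.63 and -1.61 (both adjusted p = 0.0287).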

How the results depend on the processing

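The count of calls in ad libitum dogs was 1084. It was 552 with weeks 0 and 24 alone and dog as a fixed block, 643 with no filter on low values and 92 without the arrays with muscle. Leaving out 1 dog in turn gave 91 to 804. In control dogs the count of 1797 became 4 with weeks 0 and 24 alone and the fixed block, 23 without the arrays with muscle and 8 when the actin value entered the fit, and leaving out 1 dog gave 140 to 1456. The difference of the changes, with 5 calls, gave 16 with dog as a fixed block over all weeks, 0 with weeks 0 and 24 alone, 9 with no filter, 0 with the filter at log2 6, 2 without the arrays with muscle and 1 with the actin covariate, and leaving out 1 dog gave 0 to 28. The paired fit with dog as a fixed block over all weeks gave 1213 calls in ad libitum dogs and 1929 in controls, and 503 of the 540 rises and 468 of the 544 falls passed in it. The cause of these shifts was not tested, beyond the smaller number of arrays in fits that leave some out.

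Of 79 named probe sets past the threshold in ad libitum dogs, all 79 kept their direction under every alternative run for them and 10 passed under each. Signs turned for 3 genes that never passed: ADIPOQ (0.01 with weeks 0 and 24 alone, 0.01 with no batch term, 0.01 with the actin covariate, -0.20 to 0.16 on leaving out 1 dog, the highest without dog 5), LPL (-0.48 to 0.10 on leaving out 1 dog, the highest without dog 5) and CD68 (-0.76 to 0.18, the highest without dog 6). A low signal limits the genes that start at background, whose size of change is not a fold.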

Other observations

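Genes of the proteasome, which degrades tagged proteins, had medians on opposite sides of 0 in the feeding groups. Of 27 genes, 17 were higher in ad libitum dogs with a median of 0.11, and 24 were lower in controls with a median of -0.47. In ad libitum dogs 0 passed by limma (6 at an unadjusted p under 0.05), and in controls 10 fell. Over all probe sets the control falls went from 1069 to 8 without the arrays with muscle and to 1 with the actin value in the fit. Without the arrays with muscle, controls keep only dogs 4 and 9 at week 0 and dogs 1 and 9 at week 24. The part of muscle RNA and RNA quality in the proteasome values was not tested. For 13 of the 27, each ad libitum dog's change lay above each control dog's, against 2.05% of all probe sets tested, yet the lowest adjusted p of a difference was 0.181 (12 at an unadjusted p under 0.05). Complement genes (14) had medians of -0.18 and 0.63, and genes of fibroblasts and preadipocytes (17) of -0.16 and 0.64. Among the latter, 11 were lower in ad libitum dogs and 16 were higher in controls. Over all 9113 named genes, 4567 were higher in ad libitum dogs. No gene of either list passed in either group by limma, and no difference passed (lowest adjusted p = 0.522 and 0.447). The mean of the fibroblast list fell in ad libitum dogs 2 (11.38 to 10.14) and 6 and rose in dogs 5 (11.36 to 12.01), 7 and 8.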
